A study of Mus musculus with 31 samples.

Results

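The let-7 miRNAs are scarce in pluripotent cells although their genes are transcribed, in part because proteins act on the precursor hairpin before the mature strand is made. The study argues that mature let-7 is also held down by limiting Ago2, whose mRNA Trim71 represses in translation. The genes of 8 regulators tied to let-7 were followed here. They were chosen by name for their known part in the pathway, though earlier results of these data were known: *Trim71*, *Lin28a*, *Lin28b*, *Tut4* (also called *Zcchc11*), *Tut7* (*Zcchc6*), *Trim25*, *Dis3l2*, and *Khsrp*. All 8 were among the 15034 genes of the RNA-seq table, and 7 were among the 11287 tested genes, whose mean over all libraries reached 1 TPM, a level scaled for transcript length and library size. *Lin28b* was the gene below that minimum, and its tests come from the fit over all 15034 genes.

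Lin28a and Lin28b bind the terminal loop of let-7 precursors, where a GGAG sequence is part of the recognised element. The study places the block by Lin28a at the pre-miRNA and that by Lin28b at the pri-miRNA. Lin28a recruits the terminal uridylyl transferases Tut4 and Tut7. The uridine tail these enzymes add keeps Dicer from cutting the precursor and makes it a substrate of the exonuclease Dis3l2. Trim25 is an RNA-binding E3 ligase known as a cofactor of this tailing, and Khsrp binds the loop and favours processing. The mature let-7 that escapes this block represses the mRNAs of *Trim71*, *Lin28a*, and *Lin28b*, so the regulators and the miRNA form a loop. Trim71 is an RNA-binding TRIM-NHL protein that represses the translation or stability of the mRNAs it binds.

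The cells were ES-E14TG2a mouse embryonic stem cells (mESCs), which were grown in 2i and lif, and the WT cells of the study carry a FLAG tag in both *Trim71* alleles. The CLIPΔ mESCs lack, on both alleles, the region of the *Ago2* 3′UTR that Trim71 binds, the *Ago2* KO mESCs have *Ago2* disrupted by genome editing, and the *Ago2* KO/CLIPΔ mESCs carry both changes. WT and CLIPΔ had 2 RNA-seq libraries each and both *Ago2* KO genotypes 4, and every genotype had 4 small-RNA-seq libraries. The edited lines were grown from single sorted cells, and the sources used here do not say from which clone each library came, so a change of the genotype and a trait of the clone cannot be told apart.

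The sequences that join the regulators to let-7 are shown first. Mature let-7 miRNAs share their seed (bases 2 to 8, in capitals), as in these RefSeq records, which were picked because each comes from 1 locus and because 2 of the 4 precursors hold the GGAG of the Lin28 site and 2 do not.
let-7g-5p: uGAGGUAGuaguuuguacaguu
let-7d-5p: aGAGGUAGuagguugcauaguu
let-7b-5p: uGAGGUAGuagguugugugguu
miR-98-5p: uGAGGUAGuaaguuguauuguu

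The stretch of each hairpin just before its 3p arm shows the difference, with GGAG in capitals where it occurs. GGAG lay between the arms in 9 of the 12 let-7 and miR-98 hairpins and was absent there in 3, those of let-7b, let-7c-2, and miR-98. The hairpins lie at chr9:106178840-106178927 (plus strand), chr13:48536012-48536114 (minus), chr15:85707319-85707403 (plus), and chrX:151913214-151913321 (plus) of GRCm38 (mm10), in the order of the lines.
pre-let-7g: ugauaccacccgguacaGGAGaua
pre-let-7d: gagauuuugcccacaaGGAGuuaa
pre-let-7b: gugauguugccccuccgaagauaa
pre-miR-98: uuuuaggccccaguaagaagauaa

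Matches to the seed were then sought in the longest annotated 3′UTR of each regulator (GENCODE vM21, GRCm38), on the transcript strand only. The motifs were CTACCTCA (8mer), CTACCTC not followed by A (7mer-m8), and TACCTCA not preceded by C (7mer-A1), so that no base run counted more than once. The regulators held 16 matches, of which 8 were 8mers, 4 were 7mer-m8, and 4 were 7mer-A1. *Trim71* had 4 8mers and 2 7mer-A1 in a 3′UTR of 5512 nt, *Lin28b* had 1 8mer, 3 7mer-m8, and 1 7mer-A1 in 4445 nt, and *Lin28a* had 2 8mers in 2775 nt. *Khsrp* had 1 8mer in 1642 nt, *Trim25* 1 7mer-m8 in 3572 nt, and *Tut4* 1 7mer-A1 in 636 nt, whereas *Tut7* (1346 nt) and *Dis3l2* (350 nt) had none of these letters. An 8mer was present in 4 of the 8 regulators and in 3.63% of the 14190 table genes with an annotated 3′UTR, and any match in 6 of the 8 and in 16.7%. *Trim71*, *Lin28a*, and *Lin28b* were already known as let-7 targets, and the shares of all genes are not matched for 3′UTR length. The counts therefore do not test for an excess of matches in the regulators. These are matches of letters and not measured binding.

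The 8mers are given with the 14 bases before them, since they set the most heavily matched regulators, *Trim71* and the Lin28 genes, beside *Khsrp*. The first 4 lines are from *Trim71* (chr9, minus strand), where a pair lies 166 and 262 nt after the stop codon and another pair 3591 and 3617 nt after it. The next 2 are from *Lin28a* (chr4, minus), then 1 from *Lin28b* (chr10, minus) and 1 from *Khsrp* (chr17, minus), all in the 3′UTR.
Trim71 (chr9:114512472-114512493): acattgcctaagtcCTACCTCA
Trim71 (chr9:114512376-114512397): gtgataatttctatCTACCTCA
Trim71 (chr9:114509047-114509068): ttagtatggattttCTACCTCA
Trim71 (chr9:114509021-114509042): tggcaaaaagttgtCTACCTCA
Lin28a (chr4:134005189-134005210): cacagcctgttgaaCTACCTCA
Lin28a (chr4:134004551-134004572): agatcgccacaaacCTACCTCA
Lin28b (chr10:45381022-45381043): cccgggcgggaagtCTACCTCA
Khsrp (chr17:57022184-57022205): tgccaccttccaacCTACCTCA

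**Figure D1:**
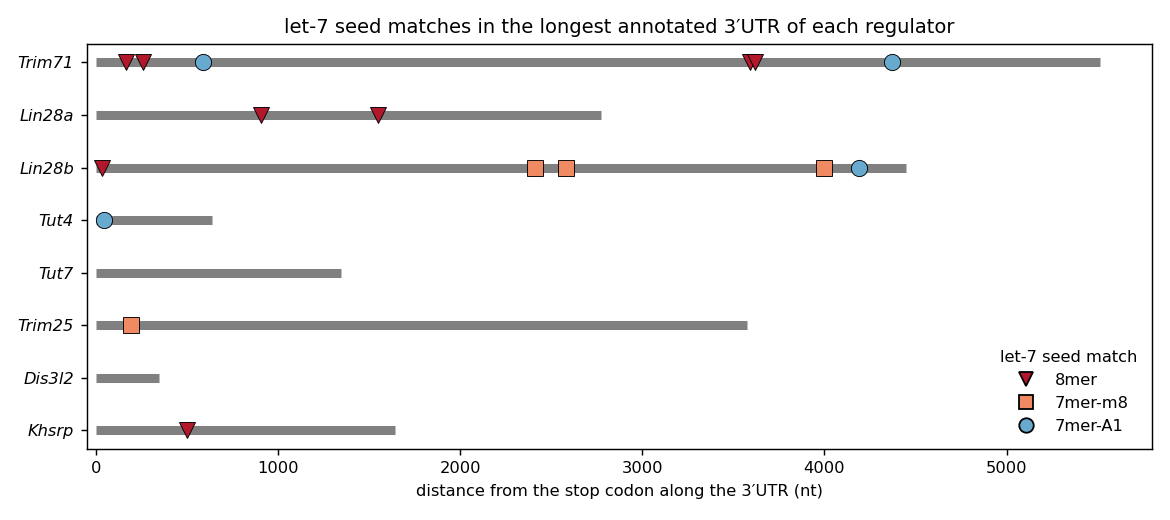
let-7 seed matches along the longest annotated 3′UTR of the 8 regulators, by distance from the stop codon in nt. Each mark is 1 of the 16 matches, drawn by its type, and *Tut7* and *Dis3l2* carry none.

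*Ago2*, the knocked-out gene, was at 28.2 and 21.6 TPM in WT and at 27.3 and 20.3 TPM in CLIPΔ, against 1.67 to 2.29 TPM in *Ago2* KO and 1.51 to 2.88 TPM in *Ago2* KO/CLIPΔ, as the labels say. Of 8 mESC markers, 7 were in the table and each was above 1 TPM in every library, with summed levels from 5110 to 6110 TPM, and *Sox2* was not analysed here. Libraries with *Ago2* knocked out resembled each other (r of 0.986 to 0.999 over genes) more than the WT and CLIPΔ libraries did (0.968 to 0.988). Replicate 1 of WT and of CLIPΔ stood apart from replicate 2 in *Egr1*, an immediate early gene, at 2481 against 68.3 TPM in WT and 1613 against 57.3 TPM in CLIPΔ. Depth is unknown, because TPM keeps no depth.

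The order of the levels in WT mESCs was set first, with TPM allowing a comparison between genes. *Khsrp* was highest at 419 TPM, in the 97.5th percentile of the table, and *Lin28b* lowest at 0.774 ± 0.151 TPM (SD, n = 2), in the 20.4th. *Trim25* (114 ± 29.0 TPM) and *Lin28a* (106 ± 2.82 TPM) came next to *Khsrp* and did not differ beyond their spread, since the 2 *Trim25* libraries, at 93.3 and 134 TPM, lay on either side of those of *Lin28a*. They were followed by *Trim71* (34.9 TPM), *Tut7* (16.2 ± 0.954 TPM), *Tut4* (6.92 ± 0.848 TPM), and *Dis3l2* (3.95 ± 0.207 TPM), whose libraries did not overlap with those of their neighbours. The level of *Lin28a* was 122 to 155 times that of *Lin28b* per library, and *Tut7* was 2.24 to 2.46 times *Tut4*. In the other genotypes *Khsrp* stayed first and *Lin28b* last, and *Lin28a* and *Trim25* overlapped in *Ago2* KO and *Ago2* KO/CLIPΔ, but not in CLIPΔ, where *Lin28a* was the lower of the 2 genes in both libraries.

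**Figure D2:**
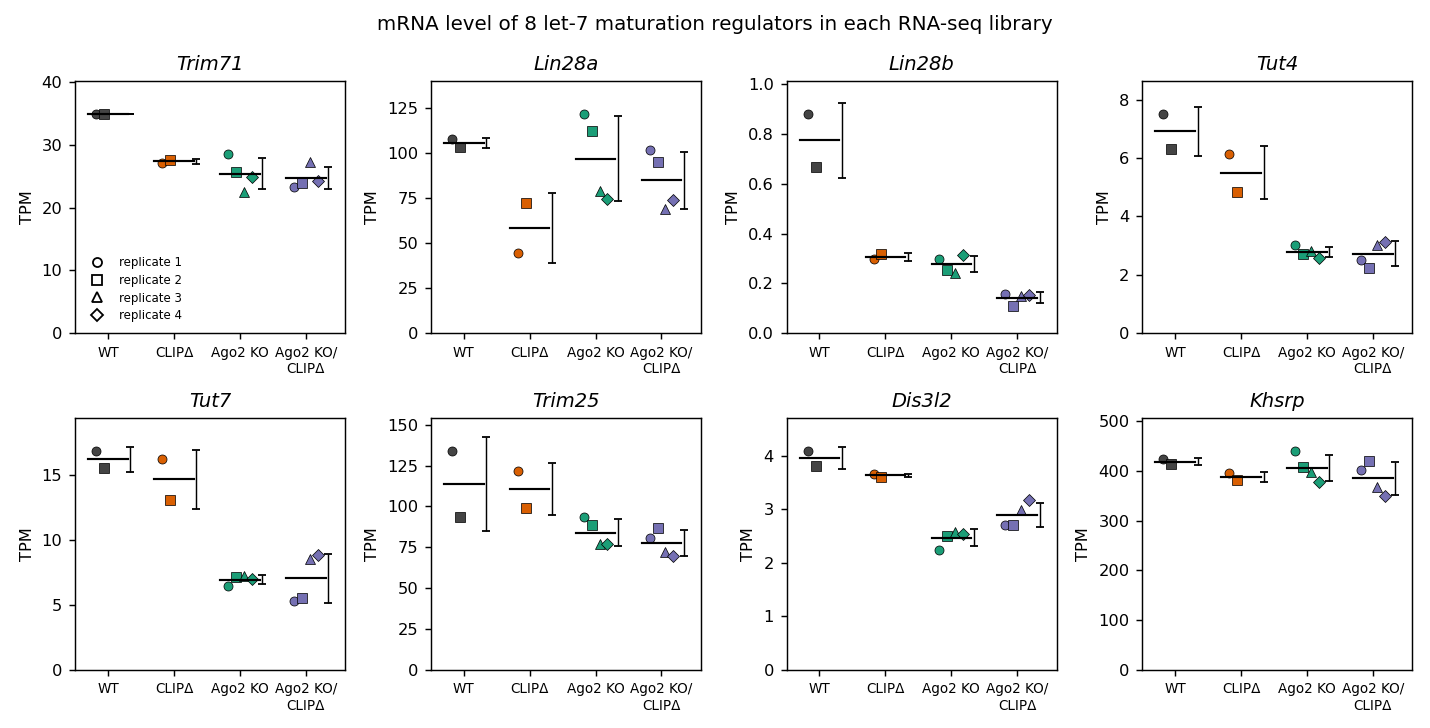
TPM of each regulator in the 12 RNA-seq libraries, 1 panel a gene, with a point for each library, a bar at the mean, and the SD as the error. *Lin28b* steps down from WT (0.667 and 0.881 TPM) to *Ago2* KO/CLIPΔ (0.108 to 0.157 TPM), and *Tut4* and *Tut7* are lower in the 8 libraries without Ago2 than in the 4 with it.

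The first comparison asked what the loss of the Trim71-binding region in *Ago2* did to the regulators while Ago2 was present. In CLIPΔ against WT mESCs, the fall of *Lin28b* was the change that passed the test, and 0 of the 7 regulators above the expression minimum passed it, against 2.27% of the genes tested. The *Lin28b* level was 0.881 and 0.667 TPM in WT, and 0.296 and 0.319 TPM in CLIPΔ. Both CLIPΔ libraries were well below both WT libraries, and the CLIPΔ mean was 39.7% of the WT mean. *Lin28b* fell by 0.44 on the log2(TPM + 1) scale (SE 0.05, adjusted p = 0.00176 by limma), in a fit that called 3.39% of the 15034 genes. With each library left out in turn its adjusted p stayed at 0.0115 or below, but it was 0.0567 after each library was centred on its median and 0.591 when the spread was estimated from these 4 libraries alone, a fit that called 0 genes in all (970 had an unadjusted p under 0.05). In bulk samples such as these, fewer cells that express a gene and less RNA per cell cannot be told apart.

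*Lin28a*, the Lin28 gene that dominates in these cells, was at 108 and 104 TPM in WT and at 44.6 and 72.1 TPM in CLIPΔ. Both CLIPΔ libraries were lower, but they also differed widely from each other. The mean was 55.3% of WT, and the log2 difference of −0.88 (SE 0.28) missed the threshold in limma (adjusted p = 0.149), with values from −1.22 to −0.54 when single libraries were left out. With the replicate number as a block over all libraries the adjusted p was 0.0345 by limma, in a fit that called 352 genes. With blocks kept within the libraries with and without Ago2, a setting chosen after seeing the data, it was 0.00866 by limma. That fit called 960 genes. The labels state no shared batch for these libraries.

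*Trim71* was at 34.9 TPM in both WT libraries, and at 27.1 and 27.6 TPM in CLIPΔ. The libraries of each genotype were close together and did not overlap with the other, with the CLIPΔ mean at 78.3% of WT, yet the log2 difference of −0.34 (SE 0.12) did not pass in limma (adjusted p = 0.206). Its transcript is 9332 nt long, and the 530 tested genes over 8000 nt had a median log2 difference of −0.18 in the same comparison. With the trend on transcript length taken out of each library, the difference for *Trim71* was −0.19 (adjusted p = 0.542 by limma).

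The 5 other regulators had smaller log2 differences as deposited, but with the length trend removed *Tut4* (−0.20) and *Trim71* (−0.19) were alike. *Tut4* was at 7.52 and 6.32 TPM in WT and at 6.15 and 4.86 TPM in CLIPΔ, a log2 difference of −0.29 ± 0.15 (SE). *Dis3l2* differed by −0.10 ± 0.11 and *Khsrp* by −0.11 ± 0.11, and in all 3 genes both CLIPΔ libraries were below both WT libraries. *Tut7* (−0.14 ± 0.21) and *Trim25* (−0.02 ± 0.18) overlapped between the genotypes. None of these 5 passed in limma, with adjusted p between 0.489 and 0.975. In count, 6 of the 8 regulators had both CLIPΔ libraries below both WT libraries, and 0 had both above, against 19.7% and 12.5% of all 15034 genes. The median log2 difference was −0.14 for the 7 regulators tested and −0.05 for all genes tested, and with the length trend removed that of the regulators was −0.05.

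Markers of cell identity also moved between these groups. The summed level of the mesoderm markers (3 of 3 in the table) was 67.6 to 70.2 TPM in WT and 37.4 to 42.2 TPM in CLIPΔ, and that of the neural markers (2 of 3) was 66.1 to 73.9 and 96.0 to 110 TPM, carried by *Nes*. The mesoderm sum was carried by *Eomes* (means of 49.5 and 25.5 TPM) and *T* (18.0 and 12.3 TPM), while *Mixl1* went the other way (1.42 and 2.03 TPM). The summed mESC markers were 5590 to 6110 TPM in WT and 5270 to 5360 TPM in CLIPΔ. Of the 7, 3 had the higher mean in CLIPΔ, among them *Dppa3* (23.5 to 193 TPM), and 4 the lower, among them *Klf4* (1160 to 778 TPM). Their part in the values of the regulators was not tested.

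The same deletion was then compared where Ago2 was absent, with 4 libraries on each side. In *Ago2* KO/CLIPΔ against *Ago2* KO mESCs, 0 of the 7 regulators tested passed in limma, against 0.877% of the genes tested (99 genes). With the replicate number as a block, the count of genes was 180 with 1 block over all libraries and 758 with blocks kept within the libraries with and without Ago2, and in both 0 of the 7 regulators passed. *Lin28b* was at 0.297, 0.254, 0.243, and 0.312 TPM in *Ago2* KO and at 0.157, 0.108, 0.151, and 0.154 TPM in *Ago2* KO/CLIPΔ. Every *Ago2* KO/CLIPΔ library was below every *Ago2* KO library, with a mean of 51.5%. The difference of means had an exact permutation p = 0.0286 (two-sided), the smallest that 4 against 4 libraries can give, while the log2 difference of −0.16 (SE 0.04) did not pass the limma test over all genes (adjusted p = 0.0878). On a log2(TPM + 0.1) scale, which gives more weight to low levels, it was −0.64 (adjusted p = 0.0375 by limma), and with the spread of these groups alone the adjusted p was 0.0149.

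*Dis3l2*, the exonuclease, was the regulator whose groups separated the other way. It was at 2.23, 2.5, 2.58, and 2.54 TPM in *Ago2* KO and at 2.70, 2.71, 2.97, and 3.16 TPM in *Ago2* KO/CLIPΔ. Every *Ago2* KO/CLIPΔ library was higher, with a mean of 117% and an exact permutation p = 0.0286, and the limma log2 difference was 0.17 (SE 0.08, adjusted p = 0.493). So 2 of 8 regulators separated, 1 in each direction, where 9.62% of all genes were lower and 3.33% higher in every library, and 12.9% had an exact permutation p under 0.05. Without any 1 of the 8 libraries the exact p of both genes was 0.0571, the smallest that 3 against 4 allows.

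The other 6 regulators overlapped between the groups. *Trim71* was at 28.5, 25.7, 22.5, and 24.9 TPM in *Ago2* KO and at 23.3, 24.0, 27.3, and 24.2 TPM in *Ago2* KO/CLIPΔ, a mean difference of −0.70 TPM (exact permutation p = 0.657). *Lin28a* was at 122, 112, 79.0, and 74.4 TPM in *Ago2* KO and at 102, 95, 68.9, and 74.0 TPM in *Ago2* KO/CLIPΔ. Replicates 1 and 2 were higher than replicates 3 and 4 in both groups, with means of 117 and 76.7 TPM in *Ago2* KO and of 98.4 and 71.5 TPM in *Ago2* KO/CLIPΔ, and the exact permutation p of the unpaired groups was 0.429. Between same-numbered libraries, *Lin28a* was lower in *Ago2* KO/CLIPΔ in 4 of 4 pairs, as was *Trim25*, and with the blocks within Ago2 status their adjusted p was 0.375 and 0.279 by limma. *Trim25* and *Khsrp* were also higher in replicates 1 and 2 of both groups. The exact permutation p of *Tut4*, *Tut7*, *Trim25*, and *Khsrp* was 0.8, 0.886, 0.286, and 0.371.

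Whether the deletion acted differently with and without Ago2 was tested by the interaction term, which shares the libraries of both comparisons above. It passed in limma for 0 of the 7 regulators and in 0.647% of the genes tested. The estimate was 0.71 (SE 0.34) for *Lin28a* and 0.31 (SE 0.15) for *Trim71*, both with an adjusted p of 0.643. For *Lin28b* it was 0.28 (SE 0.06, adjusted p = 0.0880 by limma, in a fit that called 1.12% of all genes), and without WT replicate 2 it was 0.37 (adjusted p = 0.0121).

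**Figure D3:**
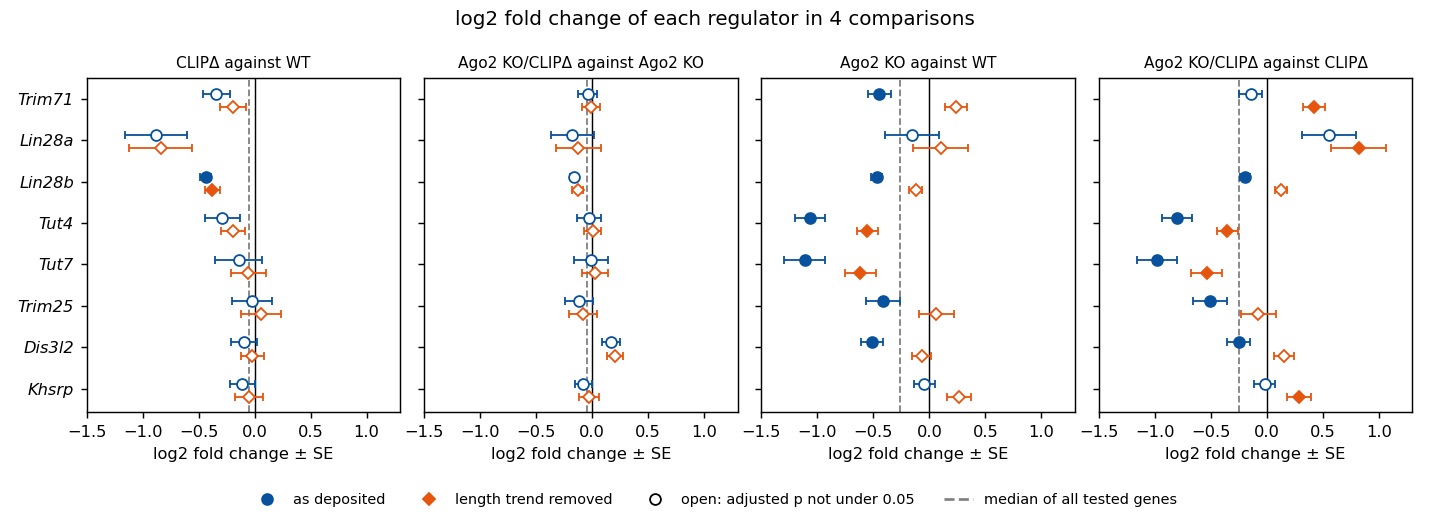
Log2 differences (log2(TPM + 1), bars 1 SE) of the 8 regulators in 4 comparisons, as deposited in blue and with the trend on transcript length removed in orange, filled where the limma adjusted p was under 0.05. The dashed line is the median of all genes tested, which was −0.26 in *Ago2* KO against WT and −0.05 in CLIPΔ against WT.

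The largest log2 differences of the regulators were between cells without and with Ago2. In *Ago2* KO against WT mESCs, 5 of the 7 regulators tested fell and 0 rose, where 42.4% of all genes tested fell and 1579 genes rose. The uridylyl transferases led. *Tut4* was at 7.52 and 6.32 TPM in WT and at 3.02, 2.70, 2.80, and 2.59 TPM in *Ago2* KO, and *Tut7* was at 16.9 and 15.5 TPM in WT and at 6.48, 7.11, 7.23, and 6.98 TPM in *Ago2* KO. For both, the *Ago2* KO libraries were close together and all below the lower WT library, with means of 40.1% and 42.9% of WT. *Tut4* fell by 1.07 on the log2 scale (SE 0.13, adjusted p = 0.000118 by limma) and *Tut7* fell by 1.11 (SE 0.18, adjusted p = 0.000491).

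The differences between *Ago2* KO and WT varied with transcript length over all genes tested. The median log2 difference of all genes tested was −0.26, and it went from 0.03 in the 629 genes of up to 1000 nt to −0.72 in the 530 genes over 8000 nt. Centred on each library's median, 3559 genes rose and 2371 fell, in place of 1579 and 4785, and with the length trend removed 2618 rose and 2713 fell. *Tut4* (6054 nt) and *Tut7* (5869 nt) stayed lower under both settings, at −0.72 and −0.77 after centring and at −0.56 (adjusted p = 0.000895 by limma) and −0.62 (adjusted p = 0.00424) without the length trend, where 24.0% of genes tested were called lower. Markers moved with the knockout too, since *Nes* had a mean of 69.8 TPM in WT and 27.8 TPM in *Ago2* KO, and 103 TPM in CLIPΔ and 34.3 TPM in *Ago2* KO/CLIPΔ. *Dppa3* went from 23.5 to 2.26 TPM and from 193 to 2.06 TPM in these comparisons, while the summed mESC markers were 5280 to 5690 TPM in *Ago2* KO and 5110 to 5220 TPM in *Ago2* KO/CLIPΔ. Their part in the values of the regulators was not tested.

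The falls of the other 3 regulators did not pass under either of these settings. *Trim71*, whose *Ago2* KO libraries (22.5 to 28.5 TPM) were all below WT (34.9 TPM), fell by 0.45 on the log2 scale (SE 0.10, adjusted p = 0.00336 by limma), less than the median of −0.72 for genes of its length, and the difference became −0.10 after centring and 0.24 (adjusted p = 0.0690) with the length trend removed. *Dis3l2* went from 4.09 and 3.80 TPM in WT to 2.23 to 2.58 TPM and fell by 0.51 (SE 0.10, adjusted p = 0.00120 by limma), with −0.07 once the length trend was removed. *Trim25* fell by 0.41 (SE 0.15, adjusted p = 0.0368 by limma) although 1 of its 4 *Ago2* KO libraries, at 93.6 TPM, was above the lower WT library, and without WT replicate 1 the difference was −0.15 (adjusted p = 0.468) and without the length trend 0.06.

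*Lin28b*, from the fit over all genes, was at 0.243 to 0.312 TPM in *Ago2* KO, below both WT libraries and at 35.7% of their mean. It fell by 0.47 on the log2 scale (SE 0.04, adjusted p = 8.78e-05 by limma), where 39.7% of the 15034 genes fell, and the difference was −0.05 (adjusted p = 0.617) after centring and −0.12 (adjusted p = 0.0930) without the length trend. *Lin28a* (74.4 to 122 TPM, −0.16, SE 0.24) and *Khsrp* (378 to 441 TPM, −0.05, SE 0.09) overlapped with WT and did not pass (adjusted p of 0.598 and 0.686 by limma). Counting *Lin28b*, 5 of the 8 regulators were lower in every *Ago2* KO library than in every WT library, as were 49.4% of all 15034 genes, a share near that of the regulators.

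**Figure D4:**
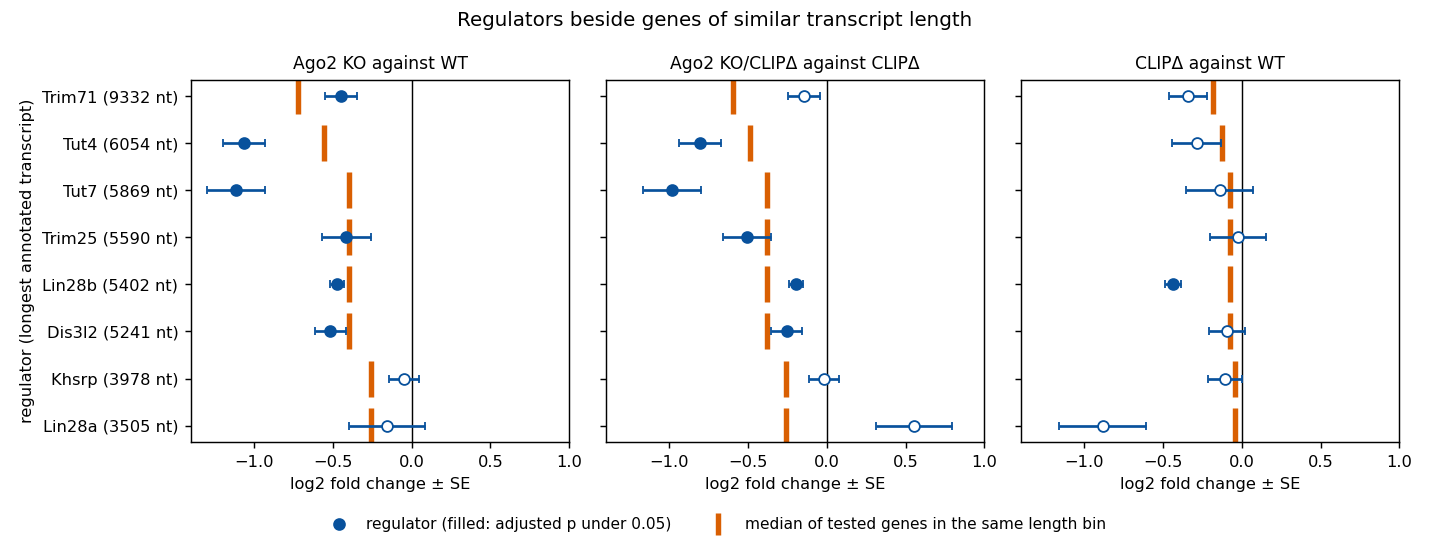
Log2 differences of the regulators, ordered by the length of their longest transcript in nt, in *Ago2* KO against WT, *Ago2* KO/CLIPΔ against CLIPΔ, and CLIPΔ against WT. Points are the regulators and orange bars the median of tested genes in the same length class. *Tut4* and *Tut7* lie below their bars (−0.56 and −0.40) in *Ago2* KO against WT, and *Trim71* lies above its bar (−0.72).

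The knockout of *Ago2* in CLIPΔ cells gave 4 falls and 0 rises among the 7 regulators tested, where 42.1% of genes fell and 12.8% rose. It shares no library with the comparison above, but both take their spread from 1 model of all 12 libraries. In neither can the knockout be told apart from another difference between the libraries with and without Ago2. Again the uridylyl transferases led. *Tut4* went from 6.15 and 4.86 TPM in CLIPΔ to 2.51, 2.23, 3.00, and 3.14 TPM in *Ago2* KO/CLIPΔ and fell by 0.81 on the log2 scale (SE 0.13, adjusted p = 0.000619 by limma). *Tut7* went from 16.3 and 13.1 TPM to 5.32, 5.54, 8.52, and 8.86 TPM and fell by 0.98 (SE 0.18, adjusted p = 0.00113). All 4 *Ago2* KO/CLIPΔ libraries were below both CLIPΔ libraries for both genes, and both falls held with the length trend removed (−0.35, adjusted p = 0.00997, and −0.54, adjusted p = 0.00874).

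*Trim25*, *Dis3l2*, and *Khsrp* changed less. *Trim25* fell from 122 and 99.3 TPM to 69.8 to 86.9 TPM, by 0.51 on the log2 scale (SE 0.15, adjusted p = 0.0154 by limma), with −0.08 when the length trend was removed and an adjusted p of 0.166 without CLIPΔ replicate 1. *Dis3l2* fell from 3.65 and 3.6 TPM to 2.70 to 3.16 TPM, by 0.25 (SE 0.10, adjusted p = 0.0468), a direction that turned to 0.08 after centring and to 0.16 without the length trend. *Khsrp* stayed at −0.02 (SE 0.09, adjusted p = 0.889), and passed as higher after centring (0.31) and without the length trend (0.28), each with an adjusted p of 0.0470 by limma.

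*Lin28b* fell from 0.296 and 0.319 TPM in CLIPΔ to 0.108 to 0.157 TPM in *Ago2* KO/CLIPΔ, to 46.4% of the mean, which was 18.4% of the WT mean. The fall of 0.19 on the log2 scale (SE 0.04, adjusted p = 0.00536 by limma, in a fit with 40.3% of all genes called lower) turned to 0.20 after centring and 0.13 without the length trend. *Trim71* overlapped between the groups (−0.14, SE 0.10, adjusted p = 0.253 by limma), and was higher by 0.42 with the length trend removed (adjusted p = 0.00607), where the median for genes of its length was −0.59. *Lin28a* overlapped too, with a mean 145% of CLIPΔ and a log2 difference of 0.55 (SE 0.24, adjusted p = 0.0673 by limma), which passed after centring (0.89, adjusted p = 0.0153) and without the length trend (0.82, adjusted p = 0.0186). With the length trend removed, then, 3 regulators rose and 2 fell in this comparison, where 23.7% and 24.3% of genes did.

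The balance between the members of each pair is free of library size, but not of the trend on transcript length. *Lin28a* (3505 nt) and *Lin28b* (5402 nt) lie in length classes with medians of −0.26 and −0.40 in *Ago2* KO against WT. *Lin28b* was also under 1 TPM in every library. The level of *Lin28a* was 151 to 226 times that of *Lin28b* in CLIPΔ, 238 to 442 times in *Ago2* KO, and 457 to 877 times in *Ago2* KO/CLIPΔ, each range above that of WT except for an overlap of CLIPΔ with it. The *Tut7* to *Tut4* ratio was 2.64 to 2.69 in CLIPΔ, 2.14 to 2.69 in *Ago2* KO, and 2.12 to 2.84 in *Ago2* KO/CLIPΔ, and overlapped with WT in both *Ago2* KO groups.

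The mature let-7 in the same genotypes was read from the small-RNA-seq. The let-7 and miR-98 5p arms together made up 0.969%, 1.1%, 0.446%, and 0.345% of the miRNA values in WT and 7.22%, 5.92%, 6.74%, and 6.14% in CLIPΔ. They made up 0.416%, 0.491%, 0.411%, and 0.457% in *Ago2* KO and 0.399%, 0.403%, 0.352%, and 0.360% in *Ago2* KO/CLIPΔ. The CLIPΔ libraries stood far above the others, while the *Ago2* KO/CLIPΔ libraries were all below the *Ago2* KO libraries by a small margin. The ratio of means was 9.09 with Ago2 and 0.853 without it (exact permutation p = 0.0286 each, the smallest for 4 against 4). A log2 ratio taken from the means of log2 shares, and not from these ratios of means, differed by −3.58 between the 2 backgrounds. An exact permutation within each background gave p = 0.000408. It asks whether the deletion had no effect in either background, so it does not test whether the effects were equal. The regulators and let-7 were measured in different libraries, so no relation between them could be tested library by library.

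Among the 6 arms that come from 1 locus, let-7b-5p and miR-98-5p, whose precursors lack the GGAG printed above, had ratios of CLIPΔ to WT of 26.1 and 12.6. Those with GGAG had 18.1 (let-7d-5p), 12.5 (let-7i-5p), 7.95 (let-7g-5p), and 4.32 (let-7e-5p). The ranges of the classes overlapped. The most abundant arm in these values, let-7g-5p, went from a mean of 3650 to 29100 RPM (deposited values scaled to a common sum of miRNA values per library), and let-7b-5p from 44.4 to 1160 RPM. The arms from more than 1 locus were low, with WT means of 5.78 (let-7a-5p), 1.08 (let-7c-5p), and 20.2 RPM (let-7f-5p). The summed share above thus rests mainly on the 6 arms from 1 locus. Why the others were low was not tested.

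**Figure D5:**
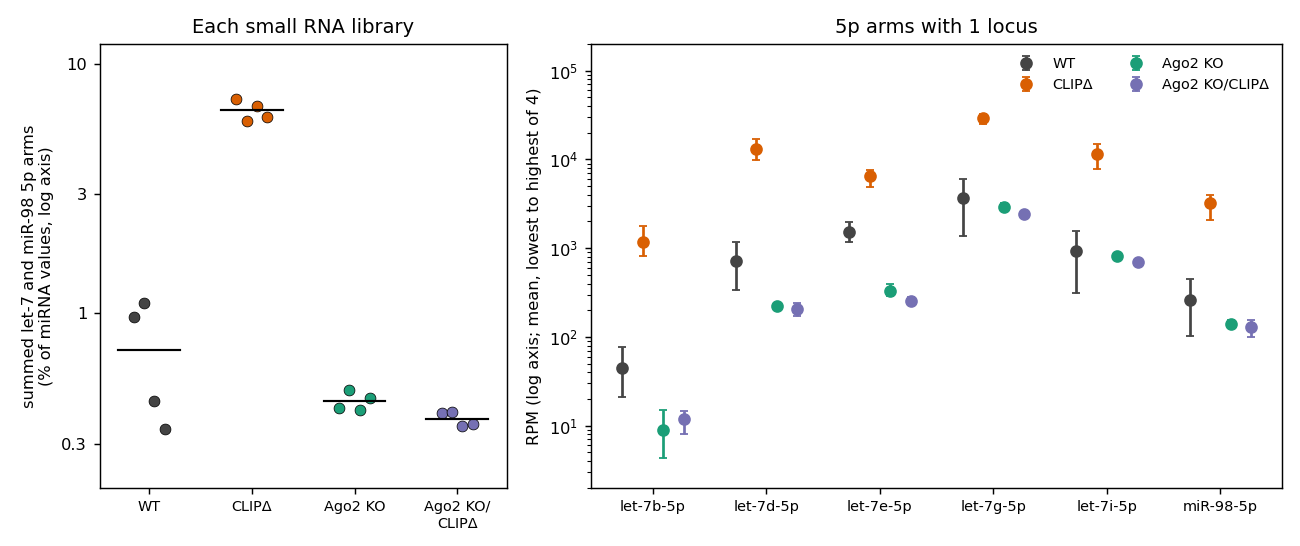
Left, summed let-7 and miR-98 5p arms as a percentage of miRNA values in each small-RNA library, on a log axis. Right, RPM of the 6 arms from 1 locus, as the mean with the lowest and highest library of each genotype, also on a log axis. The CLIPΔ libraries (5.92% to 7.22%) lie above the 12 others (0.345% to 1.1%).

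The genes whose levels followed those of *Trim71* and the Lin28 genes most closely over the 12 libraries were named by Pearson's r of log2(TPM + 1), as a description. For *Trim71* they were *Nupl2* (0.971), *Arv1* (0.948), and *Celf5* (0.946). For *Lin28a* they were *Pnma2* (0.962), *Pqlc1* (0.936), and *Asap3* (0.913), each of which had its lowest group mean in CLIPΔ. For *Lin28b* they were *Zfp248* (0.976), *Myo5a* (0.967), and *Klf4* (0.965), a pluripotency factor whose mean was 1161 TPM in WT and 677 TPM in *Ago2* KO/CLIPΔ. The 12 libraries are of 4 genotypes, so a high r can rest on the group means.

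The other genes of the pathway were followed as 6 lists with 35 genes tested. In CLIPΔ against WT, 1 of the 35 passed, against 2.27% of all genes tested. It was *Zc3h12a*, an RNase that can cut miRNA precursors, which fell from 17.8 to 10.4 TPM (log2 difference −0.72, SE 0.16, adjusted p = 0.0456 by limma). This call did not hold after centring (adjusted p = 0.0910), with the length trend removed (0.0501), from these groups alone (0.863), or without WT replicate 2 (0.191) or CLIPΔ replicate 1 (0.221). In *Ago2* KO/CLIPΔ against *Ago2* KO, and in the interaction, 0 of the 35 passed. In *Ago2* KO against WT, 23 of the 35 fell and 2 rose, where 42.4% of all genes tested fell. In *Ago2* KO/CLIPΔ against CLIPΔ, 24 fell and 3 rose, where 42.1% of all genes tested fell and 12.8% rose.

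Precursor processing divided in *Ago2* KO against WT, with 3 of 6 genes lower and 1 higher (median log2 difference −0.20, against −0.26 for all genes). Of all 11287 genes tested, 42.4% fell and 1579 genes rose. *Dicer1*, which cuts the precursor hairpin, fell from 29.2 to 12.5 TPM (−1.16), and still passed with the length trend removed (−0.45), as did *Tarbp2*, its binding partner, which rose from 74.0 to 116 TPM (0.65 as deposited, 0.82 without the trend). *Dgcr8* (−0.93) and *Drosha* (−0.21), the 2 parts of the nuclear processor, fell, but did not pass without the length trend, and *Drosha* turned to 0.16.

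Of the 9 tailing and decay enzymes, 7 fell and 1 rose in *Ago2* KO against WT, where 42.4% of all genes tested fell. Their median was −0.57, against −0.26 for all genes, or −0.14 without the length trend. The exonuclease gene *Xrn1* fell from 6.71 to 2.38 TPM (−1.18) and *Tent2*, of a poly(A) polymerase, from 9.90 to 4.12 TPM (−1.08), and both still passed without the length trend. *Tut1*, a further uridylyl transferase, rose from 57.8 to 83.3 TPM (0.53), opposite to *Tut4* and *Tut7*. *Xrn2* (−0.60) and *Dis3* (−0.57) fell, and without the length trend they were at −0.35 and −0.14 and no longer passed (adjusted p of 0.0556 and 0.236).

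Of the 11 RNA-binding modulators, 6 fell and 0 rose, where 42.4% of all genes tested fell (median −0.53, against −0.26 for all genes). *Hnrnpa1*, which binds let-7 precursors, fell from 894.9 to 470.9 TPM (−0.93), and *Syncrip* (−1.25), *Ddx5* (−1.06), and *Msi1* (−0.64) fell too, all 4 also without the length trend. In that setting 24.0% of all genes tested were called lower. Of genes known as targets or partners of Trim71, 5 of 5 tested fell, where 42.4% of all genes tested did (median −0.84, against −0.26 for all genes), among them *Cdkn1a*, a cell cycle inhibitor, from 429 to 238.5 TPM (−0.84), *Rbl1* (−0.93), *Shcbp1* (−0.61), and *Egr1* (−7.24), and these 4 passed without the length trend. The value for *Egr1* was −4.66 without WT replicate 1 and −9.82 without WT replicate 2. *Trim2*, a TRIM-NHL relative, fell by 0.50, but turned to 0.10 without the trend. *Huwe1*, which hosts let-7f-2 and miR-98, fell from 105 to 54.0 TPM (−0.94), with −0.09 without the trend. Each fold change in these lists is a limma estimate in log2(TPM + 1).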

How the data were processed

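RNA-seq of 12 libraries and small-RNA-seq of 16 libraries of 4 genotypes were used. For both, the authors aligned reads with HISAT2 2.1.0 (mm10), assigned them by HTSeq to each gene's longest transcript, and deposited TPM values per library. The deposited tables list 15034 genes and 507 miRNAs, all above 0 in every library, and no read counts per gene. The deposited CLIP-seq table gives read counts for 498 peaks. The submitters' processing notes also name CASAVA 1.4, cutadapt, SAMtools, and edgeR. Columns coded d3 were read as CLIPΔ, since the other codes are plain, and small-RNA WT and CLIPΔ columns carry letters that match a genotype and no single sample.

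Values were tested as log2(TPM + 1) in 1 limma model of 4 group means (limma 3.58.1, R 4.3.3, eBayes with trend), for genes whose mean reached 1 TPM, Benjamini–Hochberg adjusted over all genes tested, with a threshold of 0.05. The study's own count test was not used, because TPM are not counts. The pseudocount of 1 understates changes of low genes such as *Lin28b*, which was taken from the fit without the minimum. Length trends were removed by a lowess of span 0.3 per library. Scripts were tested on simulated data. Groups of 4 were also compared by two-sided exact permutation tests (smallest p 0.0286), while 2 against 2 and 4 against 2 cannot go below 0.333 and 0.133. Replicates are separate libraries by the labels, and p-values measure the spread between them.

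Same-numbered *Ago2* KO and *Ago2* KO/CLIPΔ libraries deviated together (r of 0.433, 0.320, 0.420, and 0.360). Different-numbered ones did so too within replicates 1 and 2 (0.387 and 0.335) and within replicates 3 and 4 (0.347 and 0.467). The numbers, which come from the labels, were taken as pairs only in the counts of same-numbered libraries and in the replicate blocks. The model of 4 group means and the exact tests were unpaired. The values set replicates 1 and 2 apart from 3 and 4 and do not single out these pairs. WT and CLIPΔ have 2 pairs, too few to test a pairing, and were blocked by number only as an alternative. Their same-numbered libraries deviated together with an r of 0.715, and different-numbered ones had −0.715. With 2 libraries in a group the deviations mirror each other, so this is 1 value. Replicate 1 of WT also resembled replicate 1 of CLIPΔ (r of 0.985) more than replicate 2 of WT (0.977). Alternatives were other pseudocounts (0.1 and 5), other TPM minimums, centring, fits of single groups, replicate blocks, and leaving out libraries. Members and gene lists were chosen with earlier results of these data known. Every member is named. From each list the genes past the threshold are named, at most 4 per list and comparison by size, and for 3 members the 3 genes most alike. *Trim32*, *Mir99ahg*, and *Mirlet7bhg* were not analysed here.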

Additional observations from a re-analysis of the deposited data

Results flagged for a closer look

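*Lin28b* in *Ago2* KO/CLIPΔ mESCs was flagged for 1 library far from the other 3. Replicate 2 was at 0.108 TPM and the others at 0.151 to 0.157 TPM, and its gap to the nearest was 0.874 of the group's range, over Dixon's limit for a group of 4. Of the 20 groups tested this way, chance would flag about 1. With that library left out, all remaining *Ago2* KO/CLIPΔ libraries were still below all *Ago2* KO libraries.

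The effect of the CLIPΔ deletion on the summed let-7 share was flagged because it differed between cells with and without Ago2. The log2 ratio, taken from the means of log2 shares, was 3.35 with Ago2 and −0.228 in *Ago2* KO, a difference of −3.58. An exact permutation within each background gave p = 0.000408 over 4900 splits. Its null is no effect of the deletion in either background, so it does not test whether the effects were equal. All 4 CLIPΔ libraries were above all 4 WT libraries, and all 4 *Ago2* KO/CLIPΔ libraries were below all 4 *Ago2* KO libraries.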

How the results depend on the processing

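Of the 732 alternative values for single regulators, 684 kept their side of the threshold, of which 639 also kept their direction and 45, past it in neither setting, changed sign. The others lost the call in 27 cases, gained it in 12, and reversed in 9. The reversals were *Trim71* (0.239) and *Trim25* (0.0597) in *Ago2* KO against WT with the length trend removed, and, in *Ago2* KO/CLIPΔ against CLIPΔ, *Trim71* (0.421 without the length trend), *Lin28b* (0.197 centred, 0.127 without the trend), *Dis3l2* (0.0791 and 0.156), and *Khsrp* (0.315 and 0.284). The causes were not tested. The length-trend settings and the blocks within Ago2 status were chosen after seeing the data.

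In CLIPΔ against WT, genes called numbered 510 without a TPM minimum, 145 from 5 TPM, 0 from these groups alone, 960 with the replicate block within Ago2 status, and 1181 with that block and no length trend. The regulator called was *Lin28b* without the minimum (1), and *Lin28a* with each form of the replicate block (1 in each). With 1 replicate block over all libraries the adjusted p of *Lin28a* was 0.0345 by limma, and within Ago2 status 0.00866. The labels give the 2 pairs only a shared number, but replicate 1 of WT resembled replicate 1 of CLIPΔ (r of 0.985) more than replicate 2 of WT (0.977). In *Ago2* KO/CLIPΔ against *Ago2* KO, genes called numbered 364 from these groups alone, 180 with the replicate block, and 758 with it within Ago2 status. With no length trend as well they numbered 759, and from replicates 1 and 2 or from 3 and 4 only they numbered 0. Centring gave 43 higher and 45 lower in place of 31 and 68. The interaction called 168 without the minimum, 39 from 5 TPM, 0 from replicates 1 and 2 and 12 from replicates 3 and 4 only, 329 with the block within Ago2 status, and 448 with no length trend as well. *Ago2* KO/CLIPΔ against CLIPΔ called 4033 genes from replicates 3 and 4, and centring gave 3401 higher and 2365 lower in place of 1446 and 4755. Regulators called numbered 3 from 5 TPM (which leaves out *Tut4* and *Dis3l2*), 2 centred, and 2 without the length trend in *Ago2* KO against WT, and 2 from 5 TPM in *Ago2* KO/CLIPΔ against CLIPΔ. The block over all libraries also lost *Trim25* in *Ago2* KO against WT (−0.295, adjusted p = 0.0663 by limma) and called *Lin28a* higher in *Ago2* KO/CLIPΔ against CLIPΔ (0.819, adjusted p = 0.00323), and it changed no other call of a regulator.

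Leaving out single libraries gave 105 (without CLIPΔ replicate 1) to 397 (without CLIPΔ replicate 2) genes and 0 regulators in CLIPΔ against WT, 4195 (without WT replicate 1) to 6479 genes and 4 to 5 regulators in *Ago2* KO against WT, 21 (without *Ago2* KO replicate 1) to 68 genes and 0 regulators in *Ago2* KO/CLIPΔ against *Ago2* KO (at most 61 without any library but *Ago2* KO replicate 4 and *Ago2* KO/CLIPΔ replicate 2), 3692 (without CLIPΔ replicate 1) to 6187 genes and 2 to 4 regulators in *Ago2* KO/CLIPΔ against CLIPΔ, and 51 to 144 (without CLIPΔ replicate 2) genes and 0 regulators in the interaction. The let-7 share differed by 5.55 to 5.98 and by −0.0761 to −0.0495 percentage points, and the exact tests, then of 3 against 4, no longer passed for let-7 or for any regulator (0 to 0). TPM keep no depth, so the counting error of *Lin28b*, under 1 TPM in every library, is not known.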

Other observations

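The Trim71 CLIP-seq table held 498 peaks. None was assigned to, or lay inside, the locus of any of the 8 regulators on its strand, *Trim71* itself included, while *Drosha* had 2, *Dicer1* 1, *Cdkn1a* 2, and *Ago2* 1. A table of called peaks lists the regions that passed the authors' caller, so a gene without a peak is not shown to be unbound. In *Ago2* KO/CLIPΔ against CLIPΔ mESCs the genes with these peaks that fell, beside *Ago2* itself, were *Dicer1* (log2 difference −0.60, −0.03 without the length trend) and *Cdkn1a* (−1.01, −0.91 without it).

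Of the host genes of let-7, 2 were in the RNA-seq table. *Wdr82*, which overlaps the let-7g locus, had mean levels of 92.1 TPM in WT, 102 TPM in CLIPΔ, 77.9 TPM in *Ago2* KO, and 72.7 TPM in *Ago2* KO/CLIPΔ, and fell by 0.49 in *Ago2* KO/CLIPΔ against CLIPΔ (adjusted p = 0.0152 by limma, −0.21 and not past the threshold without the length trend). Neither *Wdr82* nor *Huwe1* passed in CLIPΔ against WT, where the summed let-7 share differed 9.09-fold.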
